A study of Homo sapiens with 8 samples.

Results

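Genes for protein N-linked glycosylation were examined in Kyse510 cells, an established human esophageal squamous cell carcinoma (ESCC) line. The genes were chosen by annotation as the protein-coding genes that carry the biological process term "protein N-linked glycosylation" in either of the 2 deposited expression tables. They number 41 of the 34164 genes listed (17320 of them protein-coding). The term is given to 30 of them in the inhibitor table and to 33 in the knockdown table, and 22 carry it in both. A total of 40 of the 41 genes have values in both tables, and MGAT2 is listed only with the knockdowns. The gene set itself was proposed with results of these data known, so all values below are a description and no test was made.

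RNA was sequenced in 8 libraries, with 1 library for each condition, and values are FPKM (fragments scaled to gene length and library total). In the first table, wild-type Kyse510 cells received vehicle (DMSO), 7 µM SP2509, 7 µM UNC0642, or both compounds, and the treatments lasted 2 days. SP2509 inhibits LSD1 (KDM1A), a histone demethylase, and UNC0642 inhibits G9a (EHMT2), a histone H3 lysine methyltransferase. No separate dose was found for the combination. In the second table, Kyse510 lines carrying a stable lentiviral hairpin against LSD1 (shLSD1) or G9a (shG9a), under a doxycycline-inducible promoter, were selected with puromycin for 14 days and then left without doxycycline (Dox) or given it for 2 days. Each inhibitor library was set against vehicle and each Dox library against the same line without Dox. The 3 inhibitor comparisons therefore share the vehicle library. A line with a non-targeting hairpin was not analysed here, so an effect of Dox itself cannot be told apart from loss of the target. The first table holds wild-type cells and the second hairpin lines, so values are compared within a table.

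N-linked glycosylation begins on the endoplasmic reticulum (ER) membrane, where a branched sugar chain is built on the lipid dolichol from nucleotide sugars. The oligosaccharyltransferase (OST) complex moves the finished chain onto asparagine residues of proteins entering the ER. Glucose residues are then trimmed while the lectins calnexin and calreticulin hold the folding protein, and mannosidases and Golgi transferases remodel, branch and cap the chain. The pathway is heavily used in squamous cells, whose adhesion molecules and growth factor receptors are N-glycoproteins.

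The 8 libraries held 15662035 to 17889466 fragments, as recovered from the steps between low FPKM values. KDM1A was at 40.7, 36.2, 40.3 and 32.0 FPKM with vehicle, SP2509, UNC0642 and both inhibitors. It was at 26.0 FPKM without and 6.29 FPKM with Dox in shLSD1 cells, and at 26.4 and 35.8 FPKM in shG9a cells. EHMT2 was at 11.1, 10.2, 10.3 and 5.38 FPKM in the same 4 inhibitor libraries. It was at 7.998 and 7.97 FPKM in shLSD1 cells and at 7.85 and 4.76 FPKM in shG9a cells, without and with Dox. Each hairpin line thus had less of its own target with Dox, and the combination library also had less EHMT2 than vehicle. All 8 squamous markers reached 1 FPKM in some library, with a summed level of 487 to 1290 FPKM. Among markers of other cells, some of which had no values to use here, 2 of 5 for fibroblasts (summed 3.20 to 6.91 FPKM), 2 of 3 for endothelium (3.56 to 14.5), 1 of 3 for leukocytes (0.0365 to 2.73) and 0 of 4 for glandular epithelium (0 to 0.996) reached that level.

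A gene entered a comparison with at least 1 FPKM in at least 1 of its 2 libraries, and was called higher or lower at a ratio of at least 1.3 in (FPKM + 1). The intervals given are exact 95% binomial intervals of the ratio of fragments between 2 libraries. They cover counting error only, and with 1 library per condition no difference has a replicate check. A total of 6 of the 41 genes stayed under 1 FPKM in every library where they are listed, namely MAN1C1, MGAT2, MGAT3, FUT4, FUT6 and GAL3ST1. MGAT2 is the Golgi enzyme that opens the second antenna of complex glycans, and it was listed at 0 FPKM without Dox in both lines. It had 1 fragment with Dox in shLSD1 cells and 3 in shG9a cells. In GENCODE release 44, 92.0% of its exon length is shared with other genes, so its level is uncertain. At the other end, 8 of the 41 genes had at least 10 FPKM in all 8 libraries.

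Promoter sequence was searched in every gene of the set that had a matching window, and 3 stretches are printed. RefSeq promoter windows on GRCh38.p14, from 250 bases before to 50 bases after each start site, matched 35 of the 41 genes. ALG12, the mannosyltransferase that adds a mannose to the growing lipid-linked chain, is shown because its window held the ER stress response element, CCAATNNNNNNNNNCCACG, which factors of the unfolded protein response are known to bind. The stretch lies at chr22:49918534-49918592 on the minus strand, 154 to 96 bases before the start site, and the capitals mark the fixed letters of the element. GFPT1, the rate-limiting enzyme for the nucleotide sugar that starts the chain, and MAGT1, an OST subunit, are shown because they were lower in most comparisons. Their stretches lie outside the deposited gene span, at chr2:69387255-69387477 and chrX:77895594-77895685, both on the minus strand. RPN2 was also lower in most comparisons, but too little of its window lay outside its gene span to be printed. Capitals there mark the letters CCACG on either strand.
ALG12: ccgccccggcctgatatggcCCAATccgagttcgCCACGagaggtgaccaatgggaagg
GFPT1: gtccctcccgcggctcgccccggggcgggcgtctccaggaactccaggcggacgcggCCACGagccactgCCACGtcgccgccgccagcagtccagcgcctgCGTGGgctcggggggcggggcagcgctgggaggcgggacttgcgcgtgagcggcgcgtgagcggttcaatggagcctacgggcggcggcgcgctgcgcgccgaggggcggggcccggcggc
MAGT1: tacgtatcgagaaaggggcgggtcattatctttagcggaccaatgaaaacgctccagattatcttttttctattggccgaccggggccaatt

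The full element occurred in 1 of the 35 promoters (2.86%), beside 0.133% of 15843 protein-coding genes searched on both strands in windows of the same length. Its second form, ATTGG, any base and CCACG, was in 0 of 35, beside 0.0947% of all. The core of a different element, the unfolded protein response element, is TGACGTGG and was in 0 of 35, beside 1.05%. The amino acid response element TTGCATCA was in 0 of 35, beside 0.903%. The short letters CCACG lie within both forms of the stress element and, on the other strand, within TGACGTGG, and they were searched after the promoters had been read. They were present in 20 of 35 promoters (57.1%), beside 50.2% of all. GFPT1 held 3 copies in the stretch shown, and MAGT1 and RPN2 held 0 in the first window of each. Letters that match are a description and do not mark a bound site.

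SP2509 was the treatment with the most genes called lower. Of the 40 genes listed, 32 passed the level filter, and 21 were called lower and 4 higher. Over all genes past the filter, 39.9% were called lower and 21% higher, against 65.6% and 12.5% of the 32 here. The median log2 ratio of (FPKM + 1) was −0.63 over the 32 genes and −0.21 over all genes. All 4 assembly enzymes and 6 of 8 genes for sugar donors were on the lower side of the threshold. Among sugar donor genes outside the term, 10 of the 22 past the filter were called lower and 2 higher, nearer the share of all genes. The 4 genes called higher, namely ST3GAL1, MGAT5, B4GALT1 and PMM1, include 3 Golgi transferases.

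With UNC0642, 32 genes passed the filter, of which 8 were called lower and 6 higher. Over all genes 16.9% were called lower and 18.2% higher, so the share called higher (18.8%) was near the background and the share called lower was 25.0%. The median log2 ratio was −0.20, beside −0.01 over all genes, and was itself near 0 (−0.0099) with no filter on low values. With both inhibitors, 35 genes passed, and 11 were called lower and 9 higher, beside 31.7% and 31.4% of all genes. These shares, 31.4% and 25.7%, were close to or below the background, and the median log2 ratio was −0.00 against −0.02 over all genes. A total of 5 of the 35 genes (CCDC126, MGAT4A, MGAT5B, PMM1 and TUSC3) passed through the combination library alone, so they had to be higher there.

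In shLSD1 cells, 32 of 41 genes passed, and 4 were called lower and 2 higher with Dox. Over all genes 12.3% were called lower and 24.8% higher, against 12.5% and 6.25% of the 32. In shG9a cells, 31 genes passed, and 9 were called lower and 6 higher. The background was 17.6% lower and 32.9% higher, against 29.0% and 19.4% of the 31. The median log2 ratio was 0.11 for shLSD1 and −0.03 for shG9a, beside 0.13 and 0.18 over all genes. In these lines the median of well-expressed genes (at least 5 FPKM in both libraries) was itself shifted by 0.11 and 0.14 in log2. Centring on it gave 4 lower and 1 higher for shLSD1, and 10 lower and 3 higher for shG9a.

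**Figure D1:**
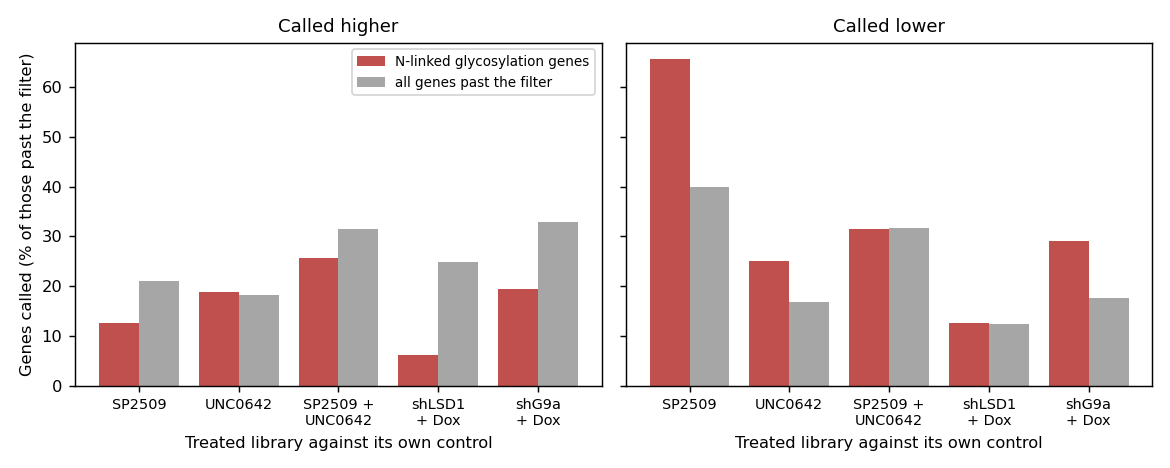
Share of N-linked glycosylation genes (red) and of all genes past the level filter (grey) called higher (left) or lower (right) in each treated library against its own control, in percent of the genes past the filter. The largest gap is for genes called lower with SP2509, at 65.6% against 39.9%.

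**Figure D2:**
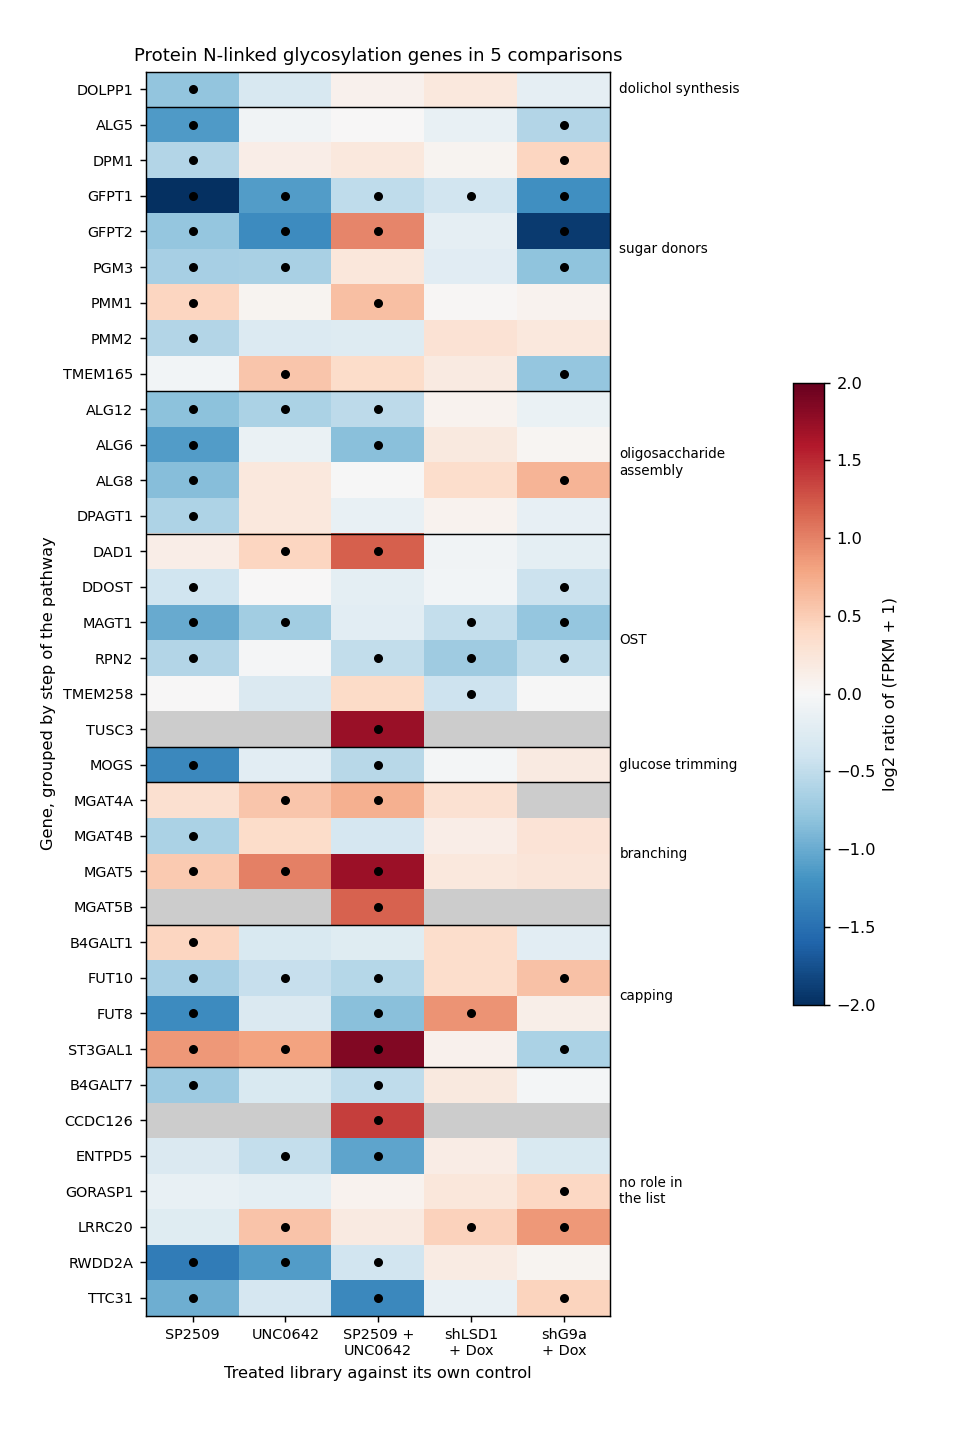
log2 ratio of (FPKM + 1) of the 35 genes that passed the filter in at least 1 comparison (rows, by step of the pathway) in the 5 comparisons (columns). Black dots mark calls, and grey cells did not pass the filter. GFPT1 is the gene with a dot on the lower side in every column.

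Enzymes that make sugar donors held the largest decrease with SP2509, with UNC0642 and in shG9a cells, while TTC31 held it with both inhibitors and RPN2 in shLSD1 cells. GFPT1 (ENSG00000198380, chr2:69319769-69387254 on the minus strand, GRCh38) was at 41.9 FPKM in vehicle, 9.67 under SP2509, 18.8 under UNC0642 and 29.3 under the combination. In shLSD1 cells it was at 37.6 FPKM without and 28.6 with Dox, and in shG9a cells at 44.5 and 18.4. Every treated library was below its control. The 3 control libraries (37.6 to 44.5 FPKM) lay above all 5 treated ones, although the tables hold different cells. In RNA from whole cultures, fewer cells with a transcript and less of it per cell cannot be told apart. The ratio was 0.231 (interval 0.218 to 0.244) with SP2509, 0.449 (0.430 to 0.470) with UNC0642 and 0.699 (0.672 to 0.727) with both. It was 0.760 (0.731 to 0.790) in shLSD1 cells and 0.413 (0.395 to 0.432) in shG9a cells. GFPT1 was the one gene of the set called lower in all 5 comparisons. Its call in shLSD1 cells was just past the threshold, at a log2 ratio of (FPKM + 1) of −0.384.

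GFPT2 (chr5:180300690-180353387), a second enzyme for the same step, was at 4.26 FPKM in vehicle, 2.07 under SP2509, 1.19 under UNC0642 and 9.36 under the combination. It was at 3.35 and 2.82 FPKM in shLSD1 cells and at 3.79 and 0.278 in shG9a cells, without and with Dox. In each table GFPT2 was thus lowest where G9a alone was targeted, and it was highest with the combination, where it was 2.20 times vehicle (1.92 to 2.51). Its ratio with UNC0642 was 0.280 (0.222 to 0.351). In shG9a cells, where 300 fragments without Dox stood against 23 with it, the ratio was 0.0732 (0.0457 to 0.112), and GFPT2 passed the filter there through the uninduced library alone.

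PGM3, the mutase that acts further along the hexosamine pathway, was at 8.67, 5.13, 5.14 and 10.3 FPKM with vehicle, SP2509, UNC0642 and both. It was at 7.69 and 6.42 FPKM in shLSD1 cells and at 8.51 and 4.44 in shG9a cells. Its ratio was 0.592 (0.536 to 0.653) with SP2509, 0.592 (0.536 to 0.654) with UNC0642 and 0.522 (0.470 to 0.579) in shG9a cells. With both inhibitors it was 1.19 times vehicle (1.09 to 1.29) and was not called. GFPT1, GFPT2 and PGM3, which all serve UDP-N-acetylglucosamine synthesis, were each called lower with SP2509, with UNC0642 and in shG9a cells. Over all genes, 4.01% were called lower with both UNC0642 and shG9a, and the share with all 3 calls was not computed. Each of these genes was also at least 1.3-fold higher in the combination library than with either compound alone, beside 20.7% of all genes. The other enzymes of UDP-N-acetylglucosamine synthesis do not carry the term. UAP1, which makes the final nucleotide sugar, went the other way, at 24.2, 59.5, 30.3 and 53.4 FPKM in the 4 inhibitor libraries, and was called higher with SP2509 and with both. GNPNAT1 was called with SP2509 alone, lower at 23.6 against 32.2 FPKM, a call lost on centring. RWDD2A, whose deposited span (chr6:83193379-83198932, plus strand) overlaps the start of PGM3 (chr6:83161150-83193936, minus strand), was at 3.63, 0.750, 1.13 and 2.56 FPKM in the 4 inhibitor libraries. It was at 3.08 and 3.55 FPKM in shLSD1 cells and at 3.10 and 3.24 in shG9a cells, so its calls were all with the inhibitors. The strand setting of the counting is not given in the sources used here.

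The mannose and glucose donor genes differed among themselves. DPM1, the catalytic subunit of dolichol-phosphate mannose synthase, was called lower with SP2509 (69.7 to 46.2 FPKM) and higher in shG9a cells (55.9 to 75.3 FPKM), though the second call was lost on centring. ALG5, which makes dolichol-phosphate glucose, was called lower with SP2509 (12.9 to 5.35 FPKM) and in shG9a cells (14.3 to 9.19 FPKM). PMM2, the main phosphomannomutase, was called lower with SP2509 alone, at 1.62 FPKM against 2.92. Its relative PMM1 was at 0.942, 1.60, 1.02 and 1.94 FPKM in the inhibitor libraries, was called higher with SP2509 and with both, and passed the filter there through the treated libraries only. TMEM165, a Golgi membrane protein needed for manganese-dependent glycosylation, had opposite calls for G9a. It was at 14.7 FPKM with vehicle and 22.0 with UNC0642, a ratio of 1.49 (1.40 to 1.59). In shG9a cells it was at 24.2 FPKM without and 13.7 with Dox, a ratio of 0.567 (0.534 to 0.603).

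The genes of the set for dolichol recycling and chain assembly were all called lower with SP2509, where 39.9% of all genes were. Outside the term, 3 of 4 dolichol genes and 4 of 8 assembly genes past the filter were called lower. DOLPP1, the phosphatase that recycles the dolichol carrier, was at 15.8 FPKM with vehicle and 8.72 with SP2509, and was called in no other comparison. The 4 assembly enzymes (DPAGT1, ALG12, ALG6 and ALG8) had log2 ratios of (FPKM + 1) from −1.11 to −0.62 with SP2509, and all were called lower. ALG6, which adds the first glucose, was at 7.75, 3.05, 6.97 and 3.93 FPKM with vehicle, SP2509, UNC0642 and both. Its ratio was 0.394 (0.340 to 0.455) with SP2509 and 0.506 (0.441 to 0.580) with both. ALG12, whose promoter stretch is printed above, was at 3.40, 1.48, 1.83 and 2.06 FPKM in these libraries and was called lower in all 3 inhibitor comparisons. It was at 2.97 and 3.15 FPKM in shLSD1 cells and at 3.54 and 3.13 in shG9a cells, with neither difference called. Of its exon length, 42.3% is shared with other genes. ALG8, which adds the second glucose, went both ways, from 12.1 to 6.26 FPKM with SP2509 and from 8.56 to 14.3 FPKM in shG9a cells, a ratio of 1.67 (1.49 to 1.87). In each knockdown line 0 of the 4 assembly enzymes were called lower, where 12.3% (shLSD1) and 17.6% (shG9a) of all genes were. With 4 genes, a count of 0 cannot be set apart from those shares.

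The term holds 6 OST subunits, and 3 of the 5 that passed the filter were called lower in each of the SP2509, shLSD1 and shG9a comparisons, where 39.9%, 12.3% and 17.6% of all genes were. MAGT1 and RPN2 were among the 3 each time, joined by DDOST with SP2509 and in shG9a cells and by TMEM258 in shLSD1 cells. MAGT1 (ENSG00000102158, chrX:77826364-77895593), an oxidoreductase subunit of OST complexes built on STT3B, was at 32.7 FPKM in vehicle, 15.8 under SP2509, 19.9 under UNC0642 and 28.2 under the combination. It was at 31.8 and 22.6 FPKM in shLSD1 cells and at 34.9 and 19.95 in shG9a cells. MAGT1 was below its control in all 5 treated libraries and was called in 4. Its ratio was 0.481 (0.450 to 0.515) with SP2509, 0.607 (0.571 to 0.646) with UNC0642, 0.710 (0.670 to 0.753) in shLSD1 cells and 0.571 (0.537 to 0.607) in shG9a cells. With both inhibitors it was 0.861 (0.813 to 0.912).

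RPN2 (ENSG00000118705, chr20:37178410-37241623), a subunit common to all OST complexes, was at 121 FPKM in vehicle, 80.5 under SP2509, 119 under UNC0642 and 85.6 under the combination. It was at 119 and 72.0 FPKM in shLSD1 cells and at 131 and 92.9 in shG9a cells. RPN2 was called lower in 4 comparisons, and UNC0642 was the exception with a ratio of 0.981 (0.946 to 1.02). The lowest ratio was 0.605 (0.580 to 0.631) in shLSD1 cells. GFPT1, MAGT1 and RPN2 were the 3 genes called lower in at least 4 of the 5 comparisons, and no gene of the set was called higher in as many. They are 3 of the 32 genes that passed the filter in at least 4 comparisons (9.38%). Over all genes, 2.89% were called lower and 2.86% higher in at least 4, and 3 of the comparisons share the vehicle library.

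DDOST, another common subunit, was at 122, 92.4, 123 and 106 FPKM with vehicle, SP2509, UNC0642 and both, at 162 and 155 in shLSD1 cells and at 170 and 126 in shG9a cells. It was just past the threshold with SP2509, at 0.755 (0.726 to 0.786), a call lost on centring, and in shG9a cells, at 0.742 (0.717 to 0.768). TMEM258 was at 3.89, 3.92, 2.99 and 5.35 FPKM in the inhibitor libraries. It was at 4.99 and 3.48 FPKM in shLSD1 cells, where it was called lower, and at 4.26 and 4.23 in shG9a cells. The shLSD1 call was lost when the mean of both uninduced lines served as the control.

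DAD1 and TUSC3 went the other way with the combination. DAD1, a small subunit first known as a defender against cell death, was at 103, 113, 138 and 237 FPKM with vehicle, SP2509, UNC0642 and both. Its ratio was 1.34 (1.25 to 1.44) with UNC0642 and 2.31 (2.17 to 2.47) with both. In the lines it was at 145 and 138 FPKM (shLSD1) and at 150 and 131 (shG9a), with no call. TUSC3, the paralog that can take the place of MAGT1, was at 0.123, 0.227, 0.345 and 2.72 FPKM in the inhibitor libraries, from 10, 21, 32 and 238 fragments. With both inhibitors it was 22.1 times vehicle (11.8 to 46.6). In the lines TUSC3 stayed between 0.0326 and 0.189 FPKM, from 3 to 17 fragments. In FPKM, TUSC3 made up 0.375% of the sum of TUSC3 and MAGT1 with vehicle and 8.79% with both inhibitors, so MAGT1 remained the more abundant of the pair.

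**Figure D3:**
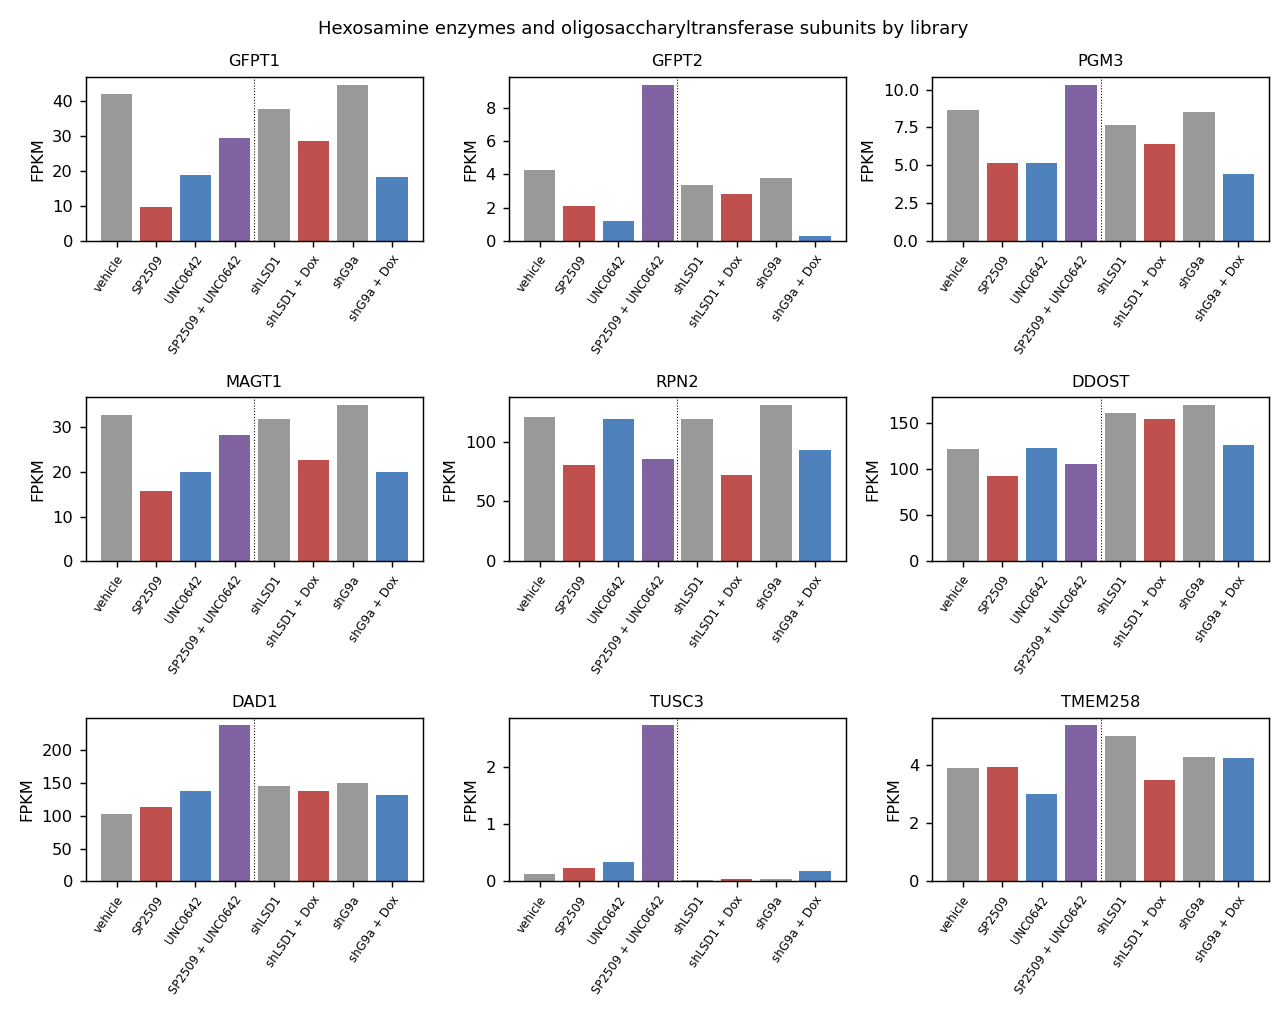
FPKM of GFPT1, GFPT2 and PGM3 and of the 6 OST subunits in each of the 8 libraries, with 1 library per bar. Grey bars are controls, red bars LSD1 targeted, blue bars G9a targeted and purple bars both; the dotted line parts the 2 tables. The combination bar stands above both single-inhibitor bars for GFPT1, GFPT2, PGM3, MAGT1, DAD1, TUSC3 and TMEM258.

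**Figure D4:**
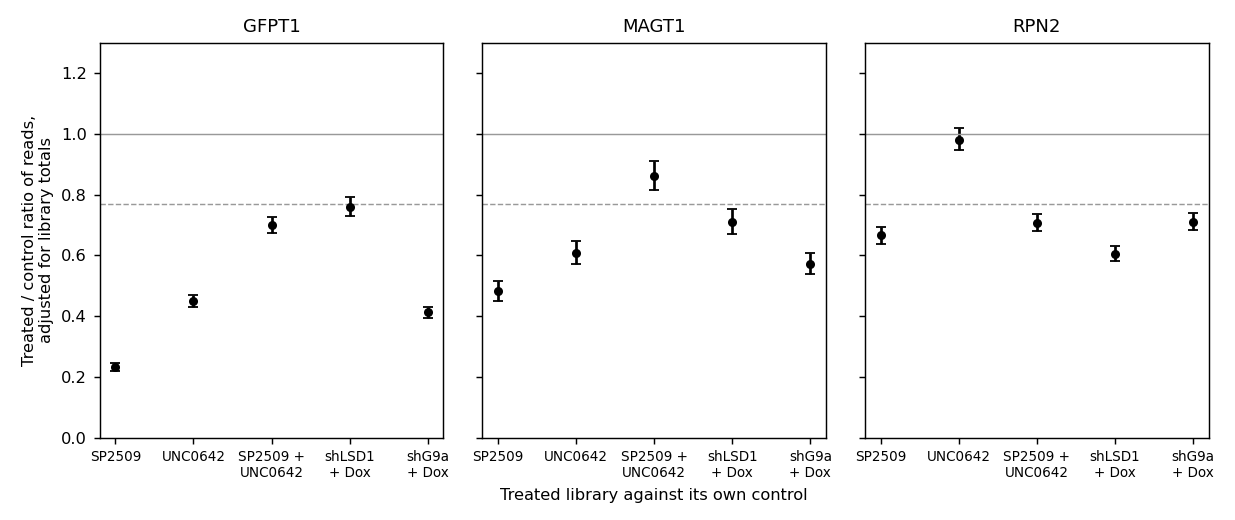
Ratio of the treated to the control library for GFPT1, MAGT1 and RPN2 in the 5 comparisons, from fragments adjusted for library totals. Bars are exact 95% binomial intervals for counting error only, the solid line marks 1 and the dashed line the threshold of 1.3 on the lower side. The exceptions to a call are MAGT1 with both inhibitors (0.861) and RPN2 with UNC0642 (0.981).

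After transfer, MOGS removes the outermost glucose from the chain. It was at 22.0, 8.39, 18.9 and 14.6 FPKM with vehicle, SP2509, UNC0642 and both, at 24.6 and 23.8 in shLSD1 cells and at 23.1 and 26.2 in shG9a cells. Its ratio was 0.381 (0.341 to 0.424) with SP2509 and 0.664 (0.606 to 0.728) with both, and no call was made in the lines.

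Golgi branching enzymes of the set went both ways with the inhibitors. MGAT5, which starts the β1,6 branch of complex N-glycans, was at 3.91 FPKM in vehicle, 6.02 under SP2509, 8.84 under UNC0642 and 15.03 under the combination. The 3 treated libraries were all above vehicle, with ratios of 1.54 (1.38 to 1.72), 2.26 (2.04 to 2.51) and 3.85 (3.50 to 4.24). In the lines MGAT5 was at 2.77 and 3.36 FPKM (shLSD1) and at 3.12 and 3.89 (shG9a), both higher with Dox and neither called. MGAT5B, a related enzyme best known from brain, was at 0.320, 0.493, 0.718 and 2.00 FPKM with the inhibitors, a ratio of 6.26 (4.31 to 9.39) for the combination, the one library in which it reached 1 FPKM. MGAT4A was at 0.636, 1.04, 1.40 and 1.67 FPKM, and was called higher with UNC0642 and with both, after passing the filter through the treated libraries. MGAT4A and MGAT5B could therefore be called in the higher direction only. Its more abundant relative MGAT4B went from 28.8 to 18.1 FPKM with SP2509 and was called in that comparison only. MGAT1, which opens the first antenna and does not carry the term, was at 5.49 FPKM with vehicle, and was called lower with SP2509 (2.43) and higher with both inhibitors (10.4).

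Among capping enzymes, ST3GAL1 and FUT8 showed opposite patterns. ST3GAL1, a sialyltransferase that acts mainly on O-glycans, was at 1.12, 2.88, 2.72 and 6.68 FPKM with vehicle, SP2509, UNC0642 and both. Its ratios to vehicle were 2.57 (2.13 to 3.11), 2.43 (2.02 to 2.95) and 5.97 (5.03 to 7.12). In shG9a cells it went the other way, from 2.47 to 1.24 FPKM with Dox, a ratio of 0.501 (0.418 to 0.599). In shLSD1 cells it was at 2.45 and 2.66 FPKM.

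FUT8, which adds core fucose, was at 9.63, 3.43, 7.67 and 4.95 FPKM in the inhibitor libraries. Its ratio was 0.356 (0.316 to 0.400) with SP2509 and 0.514 (0.463 to 0.570) with both. With Dox in shLSD1 cells it was instead higher, at 11.6 against 5.77 FPKM, a ratio of 2.00 (1.83 to 2.20), while in shG9a cells it was at 5.77 and 6.32 FPKM. FUT8 was the one gene whose calls were opposite for SP2509 and shLSD1. FUT10 was opposite for G9a, lower with UNC0642 (2.46 to 1.51 FPKM) and higher in shG9a cells (1.06 to 2.08 FPKM). B4GALT1, the main galactosyltransferase of N-glycan antennae, was at 43.2, 58.3, 34.6 and 36.5 FPKM in the inhibitor libraries and was called higher with SP2509 alone.

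**Figure D5:**
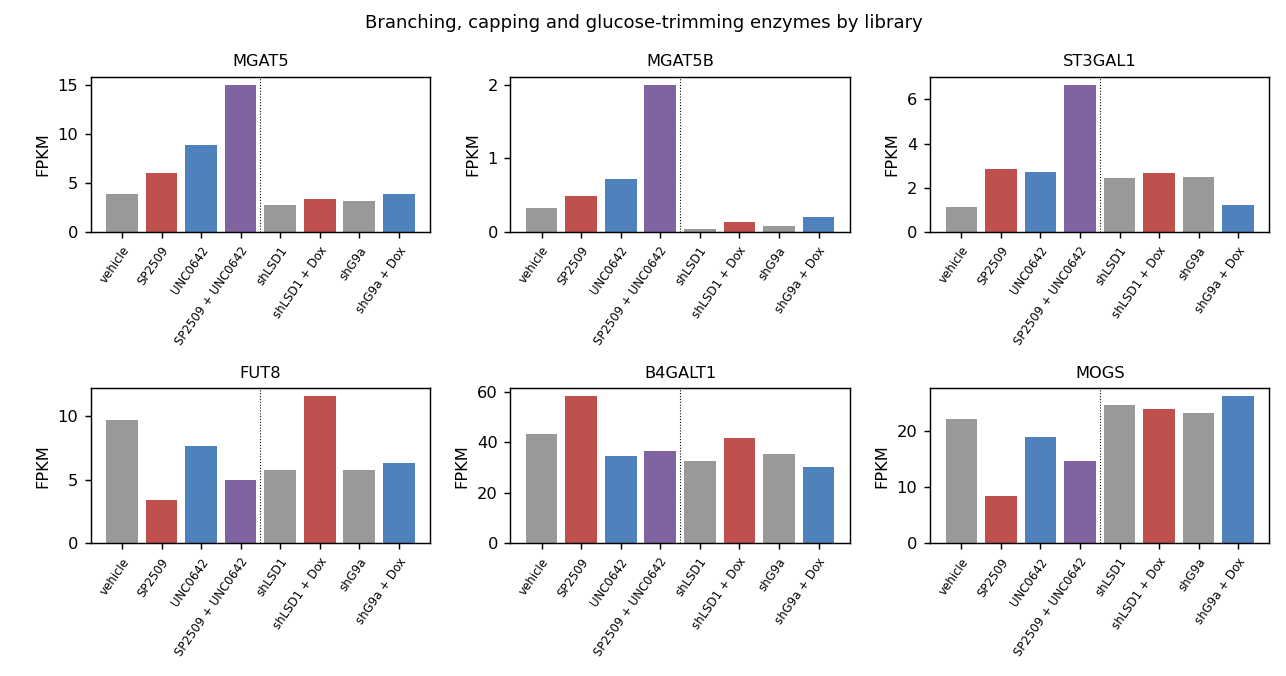
FPKM of MGAT5, MGAT5B, ST3GAL1, FUT8, B4GALT1 and MOGS in each of the 8 libraries, coloured as for the OST subunits. MGAT5, MGAT5B and ST3GAL1 are highest with both inhibitors, while FUT8 and MOGS are lowest with SP2509.

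A further 8 genes carry the term but had no step in the list of pathway roles used here. TTC31 was called lower with SP2509 (6.52 to 2.83 FPKM) and with both inhibitors (2.08 FPKM), and higher in shG9a cells (4.38 to 6.30 FPKM), a call lost on centring. ENTPD5, an ER enzyme that hydrolyses UDP left by glucosylation of folding proteins, was at 5.21, 4.06, 3.44 and 2.00 FPKM in the inhibitor libraries. It was called lower with UNC0642 and with both, and was the one gene of the set at least 1.3-fold below both single-inhibitor libraries in the combination. LRRC20 was called higher with UNC0642 (2.52 to 4.24 FPKM), in shLSD1 cells (3.74 to 5.53) and in shG9a cells (2.55 to 5.50). CCDC126 was at 0.126, 0.142, 0.614 and 1.94 FPKM with the inhibitors, from 7 fragments with vehicle and 116 with both. GAL3ST1, the sulfotransferase that makes sulfatide, had 0 fragments with vehicle and 15, 16 and 48 with SP2509, UNC0642 and both. Its fragments went from 35 to 1 in shLSD1 cells and from 19 to 4 in shG9a cells, all under 1 FPKM. The remaining B4GALT7 and GORASP1 had 1 call with SP2509 (lower) and 1 with both inhibitors (lower) for the former, and 1 in shG9a cells (higher, lost on centring) for the latter.

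The combination library was also set against each single-inhibitor library. Of 35 genes with at least 1 FPKM in 1 of the 3 libraries, 12 (34.3%) were at least 1.3-fold above both single inhibitors and 1 (2.86%) was below both. Over all genes 20.7% were above both and 13.6% below both. TUSC3, MGAT5B and CCDC126 reached 1 FPKM in the combination library alone of these 3 and so had to lie above both. Among genes with at least 1 FPKM in 1 of the single-inhibitor libraries, 9 of 32 (28.1%) were above both and 1 (3.12%) was below both, beside 15.8% and 14.6% of all genes. The 12 genes were GFPT1, GFPT2, PGM3, DOLPP1, MAGT1, DAD1, TUSC3, MGAT5, MGAT5B, ST3GAL1, CCDC126 and RWDD2A. Among these are genes that were lower than vehicle with each compound alone, such as GFPT1 and MAGT1, and genes that were higher with each, such as MGAT5 and ST3GAL1.

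Calls were also set side by side for the inhibitor and the hairpin of each enzyme. For LSD1, 32 genes passed the filter in both comparisons. GFPT1, MAGT1 and RPN2 were lower with SP2509 and shLSD1 (9.38%, beside 2.07% of all genes), 0 were higher with both (beside 2.53%), and FUT8 had opposite calls (3.12%, beside 20.4%). For G9a, 31 genes passed in both. GFPT1, GFPT2, PGM3 and MAGT1 were lower with UNC0642 and shG9a (12.9%, beside 4.01%), and LRRC20 was higher with both (3.23%, beside 4.79%). TMEM165 and ST3GAL1 were higher with UNC0642 and lower with shG9a, and FUT10 was the reverse, so that opposite calls made up 9.68% against 10.1% of all genes. Between the lines, GFPT1, MAGT1 and RPN2 were lower in each (9.68%, beside 7.32%) and LRRC20 was higher in each (3.23%, beside 13.8%), the call of LRRC20 in shLSD1 cells being lost on centring. These counts were read from calls already used above and add no separate evidence. Changes shared by the 2 lines also cannot be told apart from an effect of Dox itself.

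Other genes of the pathway that do not carry the term were taken from a list of roles, and 89 were found in the tables. With SP2509, 34 of the 74 that passed the filter were called lower (45.9%, beside 39.9% of all genes) and 8 higher (10.8%, beside 21%), with a median log2 ratio of −0.36. With UNC0642, 6 of 77 were lower (7.79%, beside 16.9%) and 10 higher (13.0%, beside 18.2%). With both inhibitors 27 of 76 were lower (35.5%, beside 31.7%) and 20 higher (26.3%, beside 31.4%). In shLSD1 cells 12 of 74 were lower (16.2%, beside 12.3%) and 16 higher (21.6%, beside 24.8%). In shG9a cells 23 of 75 were lower (30.7%, beside 17.6%) and 20 higher (26.7%, beside 32.9%). Of the 6 other OST genes, 4 were called lower in shG9a cells. These were the catalytic subunits STT3A (24.7 to 12.4 FPKM) and STT3B (58.6 to 35.0 FPKM), together with RPN1 (133 to 75.1 FPKM) and OSTC (90.3 to 44.6 FPKM). In shLSD1 cells only STT3A was called, at 15.7 against 22.6 FPKM.

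The largest decreases outside the term were FUT3, FUT11, ALG1L and CALR. FUT3, which makes Lewis antigens, went from 23.0 to 4.72 FPKM in shG9a cells, yet from 6.04 FPKM with vehicle to 9.55 with UNC0642 and 11.6 with both. FUT11 went from 10.8 to 2.26 FPKM in shLSD1 cells and from 10.01 to 2.50 in shG9a cells, yet from 2.50 FPKM with vehicle to 7.67 with both inhibitors. ALG1L was at 10.5 FPKM with vehicle and 2.32 with both, but was higher with Dox in shG9a cells, at 39.7 against 15.1 FPKM. All of its exon length is shared with other genes. CALR encodes calreticulin and went from 581 to 180 FPKM in shLSD1 cells and from 634 to 206 FPKM in shG9a cells, with 353, 273, 235 and 316 FPKM in the inhibitor libraries. The largest increases were SLC39A8, MAN1A1, B3GNT2 and NAGK. SLC39A8, a manganese and zinc transporter, went from 3.06 to 34.3 FPKM in shLSD1 cells, a ratio of 11.2 (10.1 to 12.6), while it stayed at 4.31 FPKM in shG9a cells. With SP2509 it was lower than vehicle, at 4.85 against 9.87 FPKM. MAN1A1, a Golgi mannosidase, was called higher in all 5 comparisons and reached 13.7 FPKM with both inhibitors against 3.72 with vehicle. B3GNT2, which extends polylactosamine chains, was at 6.03 FPKM with vehicle and 17.7 with both, but was called lower in shG9a cells (9.21 to 5.31 FPKM). NAGK, the N-acetylglucosamine kinase of the salvage route, was at 2.10 FPKM with vehicle and 7.24 with both.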

How the data were processed

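The authors removed low-quality reads, mapped the paired 150-base reads to GRCh38 (Ensembl release 87) and deposited FPKM values in 2 tables. Aligner, counting tool and strand setting are not given in the sources used here. Calls used log2 of the ratio of FPKM plus a pseudocount of 1, a minimum of 1 FPKM in 1 of the 2 libraries and the study's fold threshold of 1.3. Library totals were recovered from single-exon genes of GENCODE release 44, all of whose values were whole within 0.01. Fragments per gene are the fewest that fit all its values within 0.001, which gives the widest intervals. Several lengths can fit a gene, and 38 of the 41 genes had 1 length for both tables. The steps were tested on simulated data. There the fit of fragments covered genes with at least 5 FPKM whose reference length was near the true one. Genes with few fragments, or with a reference length far from the fitted one, were not covered. No test across conditions was made, since each condition has 1 library.

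The members, the pathway roles, the markers and the motifs were chosen with earlier results of these data known. Genes named are all OST members, the 4 largest called changes in each direction per comparison, members called in 1 direction in at least 4 comparisons, members with opposite calls for the inhibitor and hairpin of an enzyme, members listed in 1 table only, KDM1A and EHMT2, and the 4 largest changes in each direction among other pathway genes. Other names were added after their values were seen, to complete a role. A total of 7 symbols of the role list had no matching symbol and were not analysed here. Python 3.11.15, pandas 2.3.3, numpy 2.4.6, scipy 1.17.1 and matplotlib 3.10.9 were used.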

Additional observations from a re-analysis of the deposited data

Results flagged for a closer look

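B4GALNT4, an N-acetylgalactosaminyltransferase of the pathway list that does not carry the term, was the one gene of both lists called in opposite directions by Dox in the 2 hairpin lines. It went from 8.38 to 11.6 FPKM in shG9a cells, a log2 ratio of (FPKM + 1) of 0.43, and from 9.91 to 6.77 FPKM in shLSD1 cells, a log2 ratio of −0.49. Centring on the shift of 0.14 leaves the shG9a change short of the threshold, so the opposite calls do not hold there. Its relative B4GALNT3 had wider opposite ratios of fragments, 2.21 (1.74 to 2.83) in shG9a cells and 0.544 (0.397 to 0.740) in shLSD1 cells. B4GALNT3 was called only in shG9a cells, since its log2 ratio of (FPKM + 1) in shLSD1 cells was −0.375. The difference between the lines was not tested.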

How the results depend on the processing

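With the mean of both uninduced lines as control, no called difference changed direction. A pseudocount cannot change a direction, and the centring shifts were too small to reverse a call. Of the counts under the alternatives, 47 stayed within 1.5 times the value reported and 17 did not. A fold of at least 2 left 0 higher and 7 lower with SP2509, 1 and 3 with UNC0642, and 6 and 2 with both inhibitors. It left 0 and 0 in shLSD1 cells, and 0 and 2 in shG9a cells. A minimum of 5 FPKM left 2 higher and 15 lower with SP2509, 3 higher and 4 lower with UNC0642, and 4 higher and 7 lower with both. A pseudocount of 0.1 gave 6 higher in shLSD1 cells, adding ALG8, FUT10, PMM2 and MGAT4A. Centring gave 1 higher in shLSD1 cells and 3 in shG9a cells. Of the medians, 16 moved by less than 0.1 in log2 and 6 by more. These were SP2509 with a pseudocount of 0.1 (−0.74) and with no filter (−0.49), UNC0642 with no filter (−0.0099), shLSD1 on centring (−0.00044), and shG9a with a minimum of 5 FPKM (−0.17) and on centring (−0.18). A filter on the single-inhibitor libraries, chosen after seeing the data, left 9 of the 12 genes above both single inhibitors. Fewer genes or a higher bar accounts for the lower counts under the first 2 settings by construction. A smaller pseudocount widens every ratio and centring subtracts a constant from every log2 ratio, so those changes also follow by construction. For the other settings the cause was not tested. No called gene had a counting interval that held 1. Each condition has 1 library, so leaving out a replicate was not possible. No paired analysis was possible because each condition has 1 library and no result comes from a test. Culture, extraction and library differences cannot be told apart from the treatments, and genes with few fragments, such as TUSC3 with vehicle (10 fragments), have wide intervals.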
